A study of Sus scrofa with 6 samples.

Results

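Steroidogenesis genes of porcine granulosa cells (GCs), the somatic cells that surround the oocyte and make estradiol and progesterone, were compared between cells that overexpressed *RBP4* and control cells. The members were chosen by gene name from a list of 10 genes for cholesterol delivery, side-chain cleavage, later steps of steroid synthesis and the regulators of these genes. Names were taken from a table of Ensembl pig gene names, and 5 of the 10 were found among the 17950 genes of the deposited values. These were *CYP11A1*, *FDXR*, *SCARB1*, *NR5A1* and *NR5A2*. The other 5, *STAR*, *FDX1*, *CYP17A1*, *CYP19A1* and *HSD17B1*, were not found by name and were not analysed here, so the values below do not cover cholesterol import by *STAR* or estrogen synthesis by aromatase (*CYP19A1*).

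Landrace GCs from pre-pubertal gilts were cultured for 24 h and infected for 72 h with a lentivirus. The pLVX-*RBP4* group received the pLVX-IRES-ZsGreen vector with porcine *RBP4*, and the CTRL group received the same vector without it, so both groups carried the virus and the fluorescent marker. Each group was sequenced as 3 libraries, and how many gilts stood behind a library was not given in the sources used here. The authors' value, 1 per gene and group, is an FPKM, a fragment count divided by transcript length and by the mapped fragments. Cuffdiff made it from the 3 libraries of the group. Single libraries were therefore not analysed here, their spread is unknown, and no test between the groups could be computed. Each difference below is a comparison of 2 pooled values. In bulk RNA fewer cells of a type and less RNA per cell cannot be told apart.

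Steroid synthesis begins when cholesterol is taken up from lipoproteins and moved to the inner mitochondrial membrane. There the side-chain cleavage enzyme *CYP11A1* converts it to pregnenolone, with electrons that ferredoxin reductase (*FDXR*) passes on through ferredoxin. In the ovary the nuclear receptors *NR5A1* (SF-1) and *NR5A2* (LRH-1) bind promoters of the steroidogenic genes, and follicle-stimulating hormone acts on GCs through cAMP. *SCARB1* is the scavenger receptor that takes up cholesteryl esters from high-density lipoprotein.

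The 5 genes had nearly the same level in both groups. *RBP4* itself had 1.10 FPKM in CTRL cells and 92.3 FPKM in pLVX-*RBP4* cells, a value that includes the introduced sequence. Against this, the 5 steroidogenesis genes summed to 806 FPKM in CTRL cells and 803 FPKM in pLVX-*RBP4* cells. Most of either sum was *CYP11A1* (673 and 669 FPKM), and the ratios of single genes ran from 0.903 for *NR5A1* to 1.06 for *SCARB1*. Changes are given as the difference of log2(FPKM + 1), pLVX-*RBP4* minus CTRL, on which changes of weakly expressed genes come out too small, and a change of at least 0.5 in either direction was counted as a call. Genes averaging 1 FPKM or more over both groups passed the level filter, 12382 in all. None of the 5 genes passed 0.5, while 4.05% of the 12382 genes did, as did 2.53% of those averaging 10 to 100 FPKM and 2.2% of those at 100 FPKM or more. The median change of the 5 genes was -0.0077, beside 0.0014 over all 12382 genes. Only *SCARB1* was higher in the pLVX-*RBP4* group as deposited and 4 were lower, where 50.2% of all genes were higher and 49.8% lower. The number higher ran from 0 to 3 of 5 under other scalings, while the share of all genes higher ran from 30.1% to 64.9%.

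**Figure D1:**
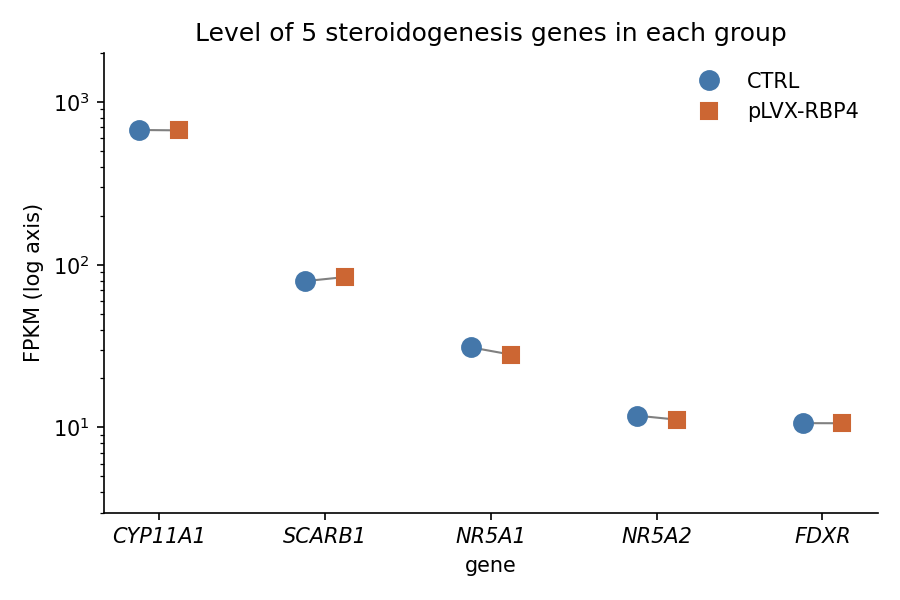
FPKM of the 5 steroidogenesis genes (log axis) in the CTRL group (circles) and the pLVX-*RBP4* group (squares), each symbol the authors' single value for a group, with no error bars because values per library were not used. From *CYP11A1* at 673 and 669 FPKM to *FDXR* at 10.6 FPKM in both groups, the order of the genes was the same in both groups.

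*SCARB1* (ENSSSCG00000009759), the lipoprotein receptor at the start of the pathway, had 79.3 FPKM in CTRL cells and 84.0 FPKM in pLVX-*RBP4* cells. The ratio was 1.06 and the change 0.08. This was the largest increase among the 5 genes, yet 63.9% of the 5810 genes averaging 10 to 100 FPKM had a change of larger size. In the order of levels *SCARB1* ranked 1337th of all genes in CTRL cells and 1320th in pLVX-*RBP4* cells.

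*CYP11A1* (ENSSSCG00000025273), the enzyme of the first conversion in the mitochondrion, was by far the most abundant of the 5. Its level was 673 FPKM in CTRL cells and 669 FPKM in pLVX-*RBP4* cells, a ratio of 0.995 and a change of -0.0077. It ranked 154th of the 17950 genes in CTRL cells and 170th in pLVX-*RBP4* cells. Among the 1092 genes at 100 FPKM or more, 97.6% had a change of larger size. Those abundant genes were more often higher than lower in the pLVX-*RBP4* group, 67.1% of them being higher with a median change of 0.084, so *CYP11A1* lay a little below the middle of its own range of levels.

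*FDXR* (ENSSSCG00000017227), the reductase that supplies *CYP11A1* with electrons, had 10.6 FPKM in both groups. Its change of -0.0020 was the smallest in size of the 5, and 99.2% of the genes between 10 and 100 FPKM had a larger one. FPKM is scaled per length, so the levels of the reductase and of the enzyme it serves can be set side by side. *CYP11A1* was 63.3 times as abundant as *FDXR* in CTRL cells and 63.0 times in pLVX-*RBP4* cells. A ratio of this kind within a group does not depend on how the groups are scaled to each other, and it was nearly the same in both. *FDX1*, the ferredoxin between them, was not analysed here.

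Both NR5A receptors were lower in the pLVX-*RBP4* group by small amounts. *NR5A1* (ENSSSCG00000005588) had 31.1 FPKM in CTRL cells and 28.1 FPKM in pLVX-*RBP4* cells, a ratio of 0.903 and a change of -0.14, which was the largest in size among the 5 genes. *NR5A2* (ENSSSCG00000024975) had 11.8 and 11.2 FPKM, a ratio of 0.945 and a change of -0.075. Neither stood out from genes of like level, since 42.4% and 67.3% of the genes between 10 and 100 FPKM had a larger change than *NR5A1* and *NR5A2*. *NR5A1* was the only one of the 5 whose change exceeded in size the median absolute change of its range of levels, which was 0.12. In the order of levels *NR5A1* moved from 3117th to 3435th and *NR5A2* from 6273rd to 6480th.

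**Figure D2:**
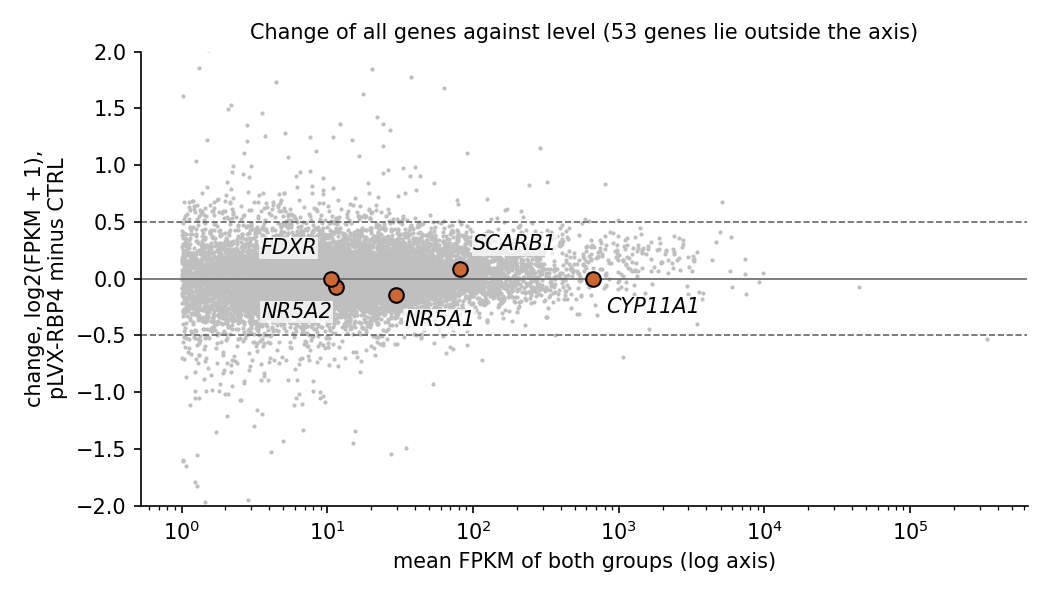
Change in log2(FPKM + 1), pLVX-*RBP4* minus CTRL, against the mean FPKM of both groups (log axis) for 12382 genes (grey points) and the 5 steroidogenesis genes (orange circles). The dashed lines mark 0.5 in either direction, and all 5 genes lie between -0.14 and 0.08, inside the dense band of the other genes; 53 genes beyond 2 on the vertical axis are not drawn.

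Between the receptors, *NR5A1* was the more abundant, with 2.63 times the FPKM of *NR5A2* in CTRL cells and 2.51 times in pLVX-*RBP4* cells. *SCARB1* was 2.55 times as abundant as *NR5A1* in CTRL cells and 2.99 times in pLVX-*RBP4* cells. As *SCARB1* had the highest and *NR5A1* the lowest ratio between the groups, this relative shift was necessarily the largest among the 6 pairs of levels computed. *CYP11A1* exceeded *SCARB1* 8.49-fold in CTRL cells and 7.97-fold in pLVX-*RBP4* cells. The lowest pair was close. *NR5A2* was 1.11 times as abundant as *FDXR* in CTRL cells and 1.05 times in pLVX-*RBP4* cells, and whether any 2 neighbours in the order differed beyond their spread is not known from pooled values.

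The direction of such small changes depended on how the groups were scaled. A single gene for which no symbol was found took 35.4% of the summed FPKM in CTRL cells and 25.8% in pLVX-*RBP4* cells, so a rescaling to a common sum moved all other genes. The other scalings shifted values by between -0.12 and 0.080 on the log2 scale, so the direction of any smaller change, here and in the lists described later, holds as deposited and may turn under another scaling. *NR5A1* and *NR5A2* were lower in the pLVX-*RBP4* group under all 6 scalings, from -0.26 to -0.065 for *NR5A1* and from -0.18 to -0.0017 for *NR5A2*. *SCARB1* was higher under 5 of the 6, from -0.035 to 0.16. *CYP11A1* was higher under 2 and *FDXR* under 3 of the 6, with ranges from -0.13 to 0.072 and from -0.11 to 0.070. The calls over all genes moved as well, with 54.6% of the calls upward as deposited, 71.1% after rescaling to a common sum, 68.7% after scaling to *GAPDH* and 31.1% with a common sum that left the highest gene out. That last scaling shifted the median of all genes to -0.10, and relative to this shift *CYP11A1* at -0.13 and *FDXR* at -0.11 stayed near the middle of all genes.

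**Figure D3:**
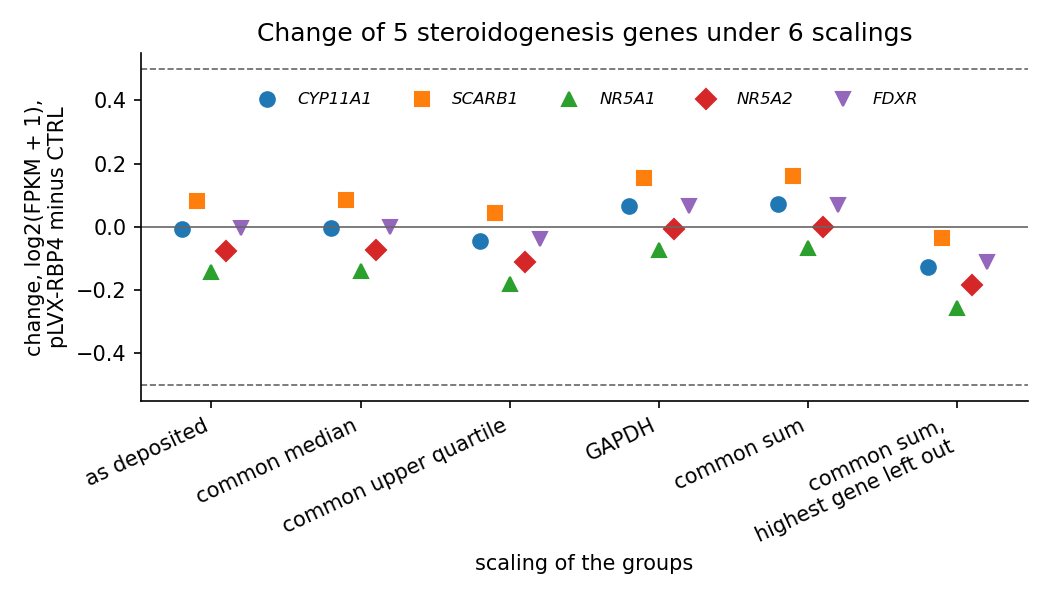
Change in log2(FPKM + 1), pLVX-*RBP4* minus CTRL, of the 5 steroidogenesis genes (symbols) under 6 ways of scaling the groups to each other (horizontal axis), with dashed lines at 0.5 in either direction. All values lie between -0.26 and 0.16, the order of *SCARB1* above and *NR5A1* below the other genes is the same under each scaling, and the set as a whole moves up or down with the scaling.

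Other genes of the pathway were described from 5 lists. Pooled over the lists and without the 5 members, 95 genes passed the level filter. Their median change was -0.035, and 43 were higher and 52 lower after *RBP4* overexpression. At least 0.5 was reached by 3 of the 95, 1 upward and 2 downward, where 2.21% of all genes passed 0.5 upward and 1.84% downward. These 3 were *APOE*, *CRTC3* and *ESR1*, each from a different list.

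Of 36 other steroid enzymes and their partners, 17 were found and 11 passed the level filter. In this list 9 genes were higher and 2 lower, where 50.2% of all genes were higher and 49.8% lower. The median change was 0.13, and none had a call, where 4.05% of all genes did. The larger increases included those of *HSD11B1*, which regenerates active glucocorticoid, from 3.11 to 4.18 FPKM (0.33), and of *HSD17B7*, an enzyme of estradiol and cholesterol synthesis, from 6.0 to 6.91 FPKM (0.18). The 2 lower genes were *SRD5A1*, a steroid 5-alpha reductase, with 13.5 and 11.6 FPKM (-0.20), and *CYP1A1*, which hydroxylates estrogens, with 9.89 and 8.81 FPKM (-0.15). The 2 most abundant were *PAPSS2*, which makes the sulfate donor for steroid sulfation, at 354 and 371 FPKM, and *CYB5A*, cytochrome b5, at 80.6 and 83.1 FPKM. The count of 9 higher was 6 of 11 with a common sum that left the highest gene out, where 30.1% of all genes were higher. The list median was then 0.015, beside -0.10 over all genes.

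The genes that deliver cholesterol to the enzyme were divided. Of 34 listed, 25 were found and all passed the level filter, and 13 were higher and 12 lower, with a median change of 0.024. *APOE*, the apolipoprotein of lipoprotein uptake and efflux, had 108 FPKM in CTRL cells and 156 FPKM in pLVX-*RBP4* cells, a change of 0.53 that was 0.49 after upper quartile scaling and 0.41 with a common sum that left the highest gene out. *STARD6*, of the same protein family as *STAR*, had 30.4 and 40.6 FPKM (0.40), and *NPC2*, the lysosomal cholesterol carrier, had 175 and 227 FPKM (0.37). The larger decreases included those of *ACOT7*, an acyl-CoA thioesterase, with a change of -0.18, and of *LRP8*, a lipoprotein receptor, with 9.20 and 8.16 FPKM (-0.16). As deposited, *LRP8* lay slightly lower and *SCARB1*, the lipoprotein receptor among the 5 genes, slightly higher, both by less than 0.5. The most abundant genes of the list were *ACSL4*, an acyl-CoA synthetase of steroidogenic cells, at 969 and 1011 FPKM, and *TSPO*, of the outer mitochondrial membrane, at 395 and 430 FPKM.

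**Figure D4:**
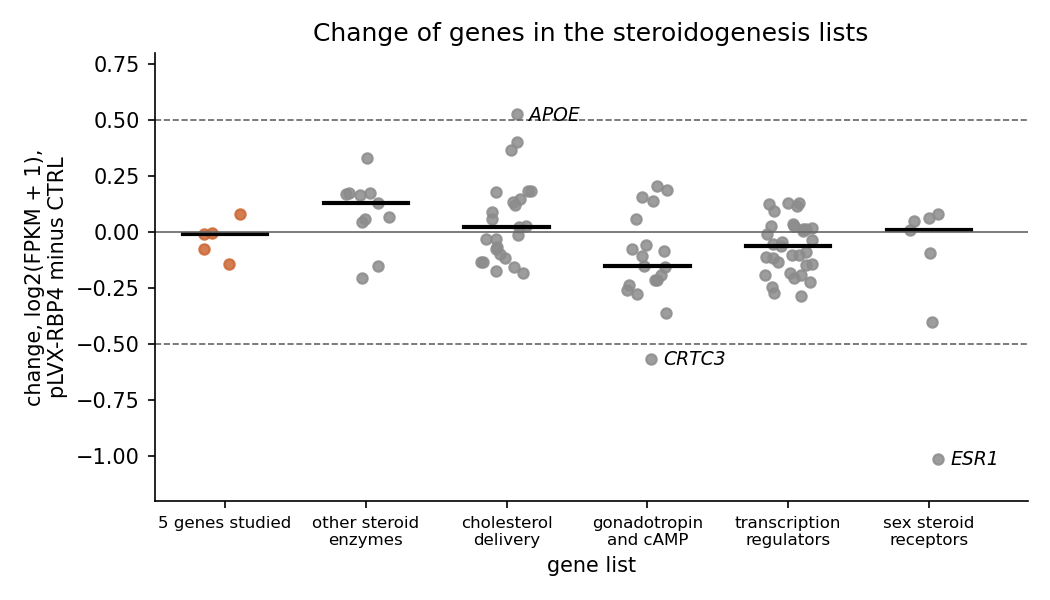
Change in log2(FPKM + 1), pLVX-*RBP4* minus CTRL, of each gene past the level filter (points) in the 5 genes studied and in 5 further lists of the pathway, with the median of each list (black line) and dashed lines at 0.5. The medians run from -0.15 for gonadotropin and cAMP signalling to 0.13 for the other steroid enzymes, and *APOE*, *CRTC3* and *ESR1* are the 3 genes past 0.5.

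Upstream of the 5 genes, the list of gonadotropin receptors and cAMP signalling had the lowest median of the 5 lists. Of 41 genes listed, 30 were found and 19 passed the level filter, 14 of them lower and 5 higher, with a median change of -0.15. The median was -0.073 after rescaling to a common sum, with 12 lower and 7 higher, where 64.9% of all genes were higher. With a common sum that left the highest gene out the list median was -0.26. The median of all genes was 0.0014 as deposited, and 0.072 and -0.10 under these scalings, so the list median lay below it under each. *FSHR*, the receptor of follicle-stimulating hormone, had 9.99 FPKM in CTRL cells and 8.47 FPKM in pLVX-*RBP4* cells (-0.21). *LHCGR*, the receptor of luteinizing hormone, had 0.209 and 0.0937 FPKM, so it was below 1 FPKM in both groups. The largest decreases were found in coactivators of CREB, the factor through which cAMP acts on promoters. *CRTC3* had 12.3 and 8.01 FPKM (-0.57, or -0.49 after rescaling to a common sum), *CRTC1* 7.87 and 5.92 FPKM (-0.36) and *CREBBP* 11.7 and 9.48 FPKM (-0.28). The third member of the *CRTC* family went the other way by a small amount, since *CRTC2*, named after its values were seen, had 21.1 and 22.0 FPKM (0.06). The largest increases belonged to *ATF1*, a CREB relative, with 7.77 and 9.13 FPKM (0.21), *PRKAR1A*, a regulatory subunit of protein kinase A and the most abundant gene of the list, with 168 and 192 FPKM (0.19), and *PDE4B*, a cAMP phosphodiesterase, with 1.60 and 1.91 FPKM (0.16). Another abundant gene, the receptor kinase *GRK2*, had 47.7 and 45.1 FPKM (-0.08).

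Of 48 other transcription regulators of steroidogenic genes, 34 were found, and 33 passed the level filter. None passed 0.5, where 4.05% of all genes did. Of the 33, 21 were lower and 12 higher, where 49.8% of all genes were lower and 50.2% higher. The median change was -0.059, beside 0.0014 over all genes. After rescaling to a common sum the list median was 0.015, with 16 lower and 17 higher. That scaling put the median of all genes at 0.072, with 64.9% of them higher, so the list median stayed below it. The largest decreases of the list were these 3. *NR4A3* and *NR4A2*, early response receptors, had 1.94 and 1.41 FPKM (-0.28) and 1.34 and 0.977 FPKM (-0.25), and the corepressor *NCOR1* had 31.7 and 26.1 FPKM (-0.27). At the other end, *DDX20*, which can repress *NR5A1*, had a change of 0.13, as had *CITED2*, a coactivator at 260 and 285 FPKM, and *RUNX2*. The second most abundant, *CTNNB1*, or beta-catenin, had 209 and 227 FPKM (0.12).

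Downstream, all 10 receptors and binding proteins of sex steroids were found and 7 passed the level filter, with 4 higher, 3 lower and a median change of 0.0099. *ESR1*, the estrogen receptor alpha, had 8.90 FPKM in CTRL cells and 3.91 FPKM in pLVX-*RBP4* cells, a ratio of 0.439. Its change of -1.01 was the largest of all genes in the 5 lists, and 0.953% of all genes reached 1.0 in either direction. It stayed past 0.5 under all 6 scalings, from -1.11 to -0.93. *PGRMC2*, a membrane progesterone receptor component, had 41.8 and 39.1 FPKM (-0.09). The membrane components *PGRMC1*, with 171 and 181 FPKM (0.08), and *PAQR7*, with 14.1 and 14.8 FPKM (0.06), and the membrane estrogen receptor *GPER1*, with 4.03 and 4.20 FPKM (0.05), were higher by small amounts as deposited and lower with a common sum that left the highest gene out. The 2 pooled values do not show whether *ESR1* differed beyond the spread between libraries. *ESR2* and *PGR* were below 1 FPKM in both groups.

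The label of the cells was checked against marker lists. Of 17 granulosa markers 10 were found, all past the level filter, and they summed to 1275 FPKM in CTRL cells and 1421 FPKM in pLVX-*RBP4* cells, led by *GJA1* (675 and 814 FPKM) and *CDH2* (399 and 412 FPKM). Of the 10, 4 were higher and 6 lower as deposited, with a median change of -0.044, and the higher sum was mostly that of *GJA1*. Most of either sum was *GJA1* and *CDH2*, and the next highest, *GATA4*, had 59.2 and 57.8 FPKM. *FST* had 20.5 and 24.7 FPKM, and *WT1* 38.6 and 36.3 FPKM. The granulosa markers *FOXL2*, *AMH*, *INHBA*, *INHBB*, *KITLG*, *CYP19A1* and *HSD17B1* were not found by name, so the sum does not cover them. *INHA* had 28.6 and 27.5 FPKM, *FSHR* 9.99 and 8.47 FPKM, and *AMHR2* 1.22 and 1.25 FPKM. Of 11 fibroblast and smooth muscle markers 10 were found, with sums of 3257 and 3520 FPKM, among them *TAGLN* at 1809 and 1891 FPKM, *ACTA2* at 644 and 688 FPKM, and *LUM* (0.37), *DCN* (0.32) and *COL3A1* (0.22) with the largest increases, while *MYH11* (-0.32) and *PDGFRB* (-0.09) were lower. Marker genes of other cells were uneven, and those given here were chosen after their values were seen. The theca gene *INSL3* was listed at 0 and had 0.292 FPKM, the leukocyte gene *PTPRC* had 0.229 and 0.166 FPKM, and the germ cell gene *DDX4* was listed at 0 and had 0.0671 FPKM. Other genes of the same lists were well above 0, with *PDGFRA* at 12.6 and 11.2 FPKM among the theca markers, *CD68* at 4.02 and 4.59 FPKM and *LYZ* at 1.01 and 1.35 FPKM among the immune markers, and the oocyte gene *GDF9* at 3.36 and 3.51 FPKM. By list, the sums were 35.5 and 35.9 FPKM for 7 theca markers found of 11, 48.8 and 55.6 FPKM for 7 immune markers of 12, most of it *CD14* (42.9 and 48.9 FPKM), 20.4 and 19.5 FPKM for 3 endothelial markers of 8, most of it *PECAM1* (16.3 and 16.0 FPKM), and 31.3 and 23.7 FPKM for 3 oocyte markers of 10, most of it *KIT* (27.9 and 20.1 FPKM), which is not restricted to the oocyte. The 7 luteal markers found of 11, which share *CYP11A1* and *SCARB1* with the 5 genes, summed to 8422 and 8576 FPKM, most of it *TIMP1* (7271 and 7459 FPKM). In the same list *VEGFA* had 398 and 363 FPKM, while *LHCGR*, *OXT* and *PGR* were below 1 FPKM in both groups. The part of any of these cells in the values above was not tested.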

How the data were processed

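RNA of cultured porcine GCs was sequenced, with 3 libraries in each of 2 groups. Per gene and group the authors deposited 1 FPKM value, made after aligning paired-end reads to Sscrofa10.2 with TopHat2, by Cuffdiff of Cufflinks. Tool versions and the annotation release were not given in the sources used here. Both columns of values were used. The depth behind a value cannot be read from FPKM, so no interval was given.

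From these values, log2(FPKM + 1) was differenced between the groups for the 12382 of 17950 genes averaging 1 FPKM or more (the level filter). A change of at least 0.5 (1.41-fold) was counted as a call. With 1 value per group no p-value, SD or SE was computed, and limma, planned for values per library, was not run. Symbols came from a table of Ensembl names (10489 genes) and the study's supplementary tables (268 more). No sequence was used, so the planned search of promoters was not run, and no coordinates of another build were printed. Named genes were all members found, *RBP4*, *FSHR* and *LHCGR*, and from each list the 3 largest changes each way, the 2 highest levels and each call; *FOXL2* and *HSD3B1*, also in the rule, were not found. Some of these genes are not reported here. The text gives a selection for the lists, and of the marker lists also genes that define a cell type, chosen after their values were seen, as were *ESR2* and *PGR*. The members and lists were chosen with earlier results of these data known. Alternatives were pseudocounts of 0.1 and 0.01, no filter or a mean FPKM of at least 5, the mean in place of the median, and scaling to a common median, upper quartile, sum (TPM), sum without the highest gene, or *GAPDH*. The arithmetic of the calculation was tested on simulated data with planted changes well past 0.5. That test does not bear on changes as small as those of the 5 members. Python 3.11.15, numpy 2.4.6, pandas 2.3.3 and matplotlib 3.10.9 were used.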

Additional observations from a re-analysis of the deposited data

How the results depend on the processing

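No paired analysis was possible because the deposited columns hold 1 value per group and carry no replicate numbers, and no library could be left out in turn. Shifts under 0.1 on the log2 scale, and counts within 1.5 times, were not taken as moved. None of the 5 members passed 0.5 under any alternative run. The common sum that left the highest gene out moved most values, giving -0.13 for *CYP11A1*, -0.11 for *FDXR*, -0.035 for *SCARB1*, -0.26 for *NR5A1*, -0.18 for *NR5A2* and -0.13 for their median. The list medians then were 0.015 for the other steroid enzymes, -0.084 for cholesterol delivery, -0.26 for gonadotropin and cAMP signalling, -0.17 for transcription regulators, -0.16 for granulosa, -0.10 for luteal, -0.025 for fibroblast and smooth muscle, -0.20 for endothelial, 0.067 for immune and -0.31 for oocyte markers, with 0 calls for cholesterol delivery and 1 for oocyte markers. The endothelial and oocyte medians rested on 2 genes each, and 4.43% of all genes passed 0.5 under this scaling. The median of all genes was -0.10 under the same scaling. Calls for sex steroid receptors were 2 of 7 with a pseudocount of 0.1 and 2 of 7 with 0.01. Of all genes, 6.49% and 6.85% passed 0.5 with these pseudocounts, beside 4.05% with a pseudocount of 1. Calls for cholesterol delivery were 0 after upper quartile scaling, and those for gonadotropin and cAMP signalling 0 after rescaling to a common sum. With no filter on low values, the luteal markers had 1 call, *OXT* at 0 and 0.426 FPKM, where 3.89% of all genes passed 0.5. The medians were then 0.014 for immune and 0.049 for oocyte markers. Among genes averaging 5 FPKM or more, only 1 oocyte marker was left, *KIT*, with a change of -0.46. No value moved with *GAPDH* or the common median as the scale. Depth per library cannot be read from the deposited FPKM.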
